A study of Mus musculus with 24 samples.

Results

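Small noncoding RNAs that serve as controls on TaqMan rodent microRNA cards were followed through the activation of mouse muscle stem cells. They are MammU6, the Y RNA Y1 and the small nucleolar RNAs snoRNA135, snoRNA202, snoRNA429 and U87. The members were all rows whose assay name, without its trailing assay number, equals one of these 6 names, out of 591 assays on the 2 cards. Card A carries 5 of them among 381 assays, without snoRNA429, and card B carries all 6 among 216 assays. MammU6 fills 4 spots on card A, where each other control fills 1, and every control fills 4 spots on card B.

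The cells came from male C57BL/6 mice aged 8 weeks and were labelled quiescent stem cells (QSC) at 0 h and activated stem cells (ASC) at 36, 60 and 72 h after muscle injury. Each time point has 3 arrays of each card, 24 arrays in all, and total RNA was isolated with Trizol, reverse transcribed and amplified for 40 cycles. The series describes the 3 replicates as technical, so every SD, interval and p-value here measures the spread between arrays and not between animals. The sources used here do not give the kind of injury, the sort of the cells or how many mice were pooled, and no group carries a transgene or drug in the labels.

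U6 is the small nuclear RNA at the catalytic centre of the spliceosome and is transcribed by RNA polymerase III. Most mammalian small nucleolar RNAs of the box C/D class are cut from introns of host genes and guide the methylation of ribosomal RNA, and Y1, another polymerase III transcript, is bound by the Ro60 protein. Such RNAs are widely used to normalise microRNA PCR because they are small, abundant and not made by Dicer, and a ratio to one of them follows the microRNA only where the control itself is level. In the RefSeq gene table (GRCm38.p6), MammU6 corresponds to Rnu6, Y1 to Rny1, snoRNA135 to Snord65 and U87 to Snord87. The table lists MBII-202 as an older name of Snord68 and MBII-429 as one of Snord100, which share only the number with snoRNA202 and snoRNA429, so those identities were taken no further.

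The measurement is the threshold cycle (Ct), the PCR cycle at which fluorescence passes a set level. One cycle later is read as 1 log2 unit less template, taking a doubling in each cycle. A raw level is minus Ct. The Ct values of different assays depend on each primer set, so a Ct difference between controls is not a ratio of molecules, and only its change over time is compared. Each card held 384 spots, except 1 card B array at 60 h with 383. Between 181 and 212 microRNA assays per array were detected on card A (Ct below 35 in all spots of the assay) and between 89 and 120 on card B. The plant assay ath-miR159a had a Ct in 0 of 12 spots on card A and 0 of 11 on card B. Replicate arrays shared 0 identical spot values and differed by a median of 0.0829 to 0.279 cycles.

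Raw levels of the controls moved apart over the time course. Y1 was higher at 36 h than at 0 h on both cards. snoRNA202 and U87 were lower at 72 h on both cards, as was snoRNA429 on card B. MammU6 and snoRNA135 stayed within 1 cycle of their 0 h means on both cards. A control was called when limma gave a Benjamini-Hochberg adjusted p below 0.05 over all tested assays of the card and the change was at least 2-fold.

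MammU6 crossed the threshold on card A at 15.34, 15.40 and 15.37 cycles at 0 h, at 14.86, 14.87 and 14.92 at 36 h, at 15.41, 15.37 and 15.40 at 60 h, and at 15.12, 15.21 and 15.02 at 72 h. On card B it did so at 15.33, 15.67 and 15.67, at 14.68, 14.70 and 14.76, at 15.48, 15.52 and 15.45, and at 15.66, 15.63 and 15.52 at the same times. The 36 h arrays were the earliest on both cards and did not overlap the others, while the 60 h arrays overlapped the 0 h arrays. The raw log2 change at 36 h was 0.49 ± 0.06 on card A and 0.84 ± 0.10 on card B (SE), below the minimum fold despite limma adjusted p-values of 1.37e-05 and 2.74e-05. At 60 h it was -0.02 ± 0.06 and 0.07 ± 0.10. At 72 h the cards gave 0.26 ± 0.06 and -0.05 ± 0.10.

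Y1 had a Ct on card A of 23.69, 23.66 and 23.68 at 0 h, 22.59, 22.47 and 22.54 at 36 h, 23.62, 23.51 and 23.63 at 60 h, and 23.82, 23.82 and 23.59 at 72 h. The card B values were 25.67, 25.93 and 25.66, then 24.02, 23.70 and 23.92, then 25.46, 25.47 and 25.36, then 25.13, 25.20 and 24.91. On both cards the 36 h arrays stood apart at the lowest Ct. On card B all 4 time points were separate, with 72 h between 36 h and 60 h, whereas on card A the 72 h arrays overlapped those of 0 h and 60 h. Y1 rose 2.21-fold at 36 h on card A (log2 1.14 ± 0.07, limma adjusted p = 1.45e-07) and 3.67-fold on card B (log2 1.87 ± 0.12, limma adjusted p = 1.61e-07). Its log2 change at 60 h was 0.09 ± 0.07 on card A and 0.33 ± 0.12 on card B, and at 72 h it was -0.07 ± 0.07 and 0.68 ± 0.12, none of them called.

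snoRNA202 was detected on card A at 14.63, 14.60 and 14.67 cycles at 0 h, 15.03, 15.01 and 15.02 at 36 h, 17.03, 17.03 and 17.11 at 60 h, and 17.53, 17.48 and 17.26 at 72 h. On card B the cycles were 14.49, 14.50 and 14.43, then 14.82, 14.60 and 14.79, then 16.96, 16.98 and 16.91, then 17.14, 17.16 and 17.09. The 4 time points did not overlap on either card, with the latest crossing at 72 h. It fell 5.36-fold at 60 h on card A (log2 -2.42 ± 0.07, limma adjusted p = 2.07e-10) and 5.56-fold on card B (-2.47 ± 0.08, limma adjusted p = 1.27e-09). At 72 h the falls were 6.91-fold and 6.31-fold (log2 -2.79 ± 0.07 and -2.66 ± 0.08). At 36 h the log2 change was -0.39 ± 0.07 and -0.26 ± 0.08, below the minimum fold.

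snoRNA429, measured on card B alone, had a Ct of 16.98, 17.20 and 16.90 at 0 h, 17.04, 16.72 and 17.07 at 36 h, 18.59, 18.71 and 18.62 at 60 h, and 18.89, 18.96 and 18.87 at 72 h. The 36 h arrays overlapped those of 0 h, and both later times stood above them. It fell 3.07-fold at 60 h (log2 -1.62 ± 0.11, limma adjusted p = 4.27e-07) and 3.69-fold at 72 h (-1.88 ± 0.11, limma adjusted p = 1.3e-07), with 0.08 ± 0.11 at 36 h.

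U87 crossed on card A at 22.34, 22.30 and 22.11 cycles at 0 h, 21.82, 21.95 and 21.96 at 36 h, 23.46, 23.07 and 23.44 at 60 h, and 23.58, 23.66 and 23.23 at 72 h. The card B arrays gave 21.61, 21.88 and 21.74, then 21.35, 21.19 and 21.34, then 22.61, 22.80 and 22.68, then 22.92, 22.96 and 22.73. Arrays of 60 h and 72 h overlapped on both cards and lay above all arrays of 0 h and 36 h. U87 fell 2.11-fold at 60 h on card A (log2 -1.07 ± 0.14, limma adjusted p = 3.56e-05), and the card B change of -0.96 ± 0.10 was just below the minimum fold, with -1.02, a call, without the 0 h replicate 2. At 72 h it fell 2.37-fold on card A (log2 -1.24 ± 0.14) and 2.19-fold on card B (-1.13 ± 0.10). Its 36 h values were 0.34 ± 0.14 and 0.45 ± 0.10.

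snoRNA135 had card A values of 19.77, 19.81 and 19.65 at 0 h, 19.44, 19.53 and 19.44 at 36 h, 20.05, 20.15 and 20.10 at 60 h, and 20.35, 20.41 and 20.30 at 72 h. Card B gave 19.53, 19.80 and 19.75, then 19.24, 19.15 and 19.19, then 20.06, 20.04 and 19.97, then 20.08, 20.18 and 19.99. The order of the groups, with 36 h earliest and 0 h next, was the same on both cards, and 60 h and 72 h overlapped on card B alone. No change reached the minimum fold: the log2 change at 36, 60 and 72 h was 0.28, -0.36 and -0.61 on card A and 0.50, -0.33 and -0.39 on card B.

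**Figure D1:**
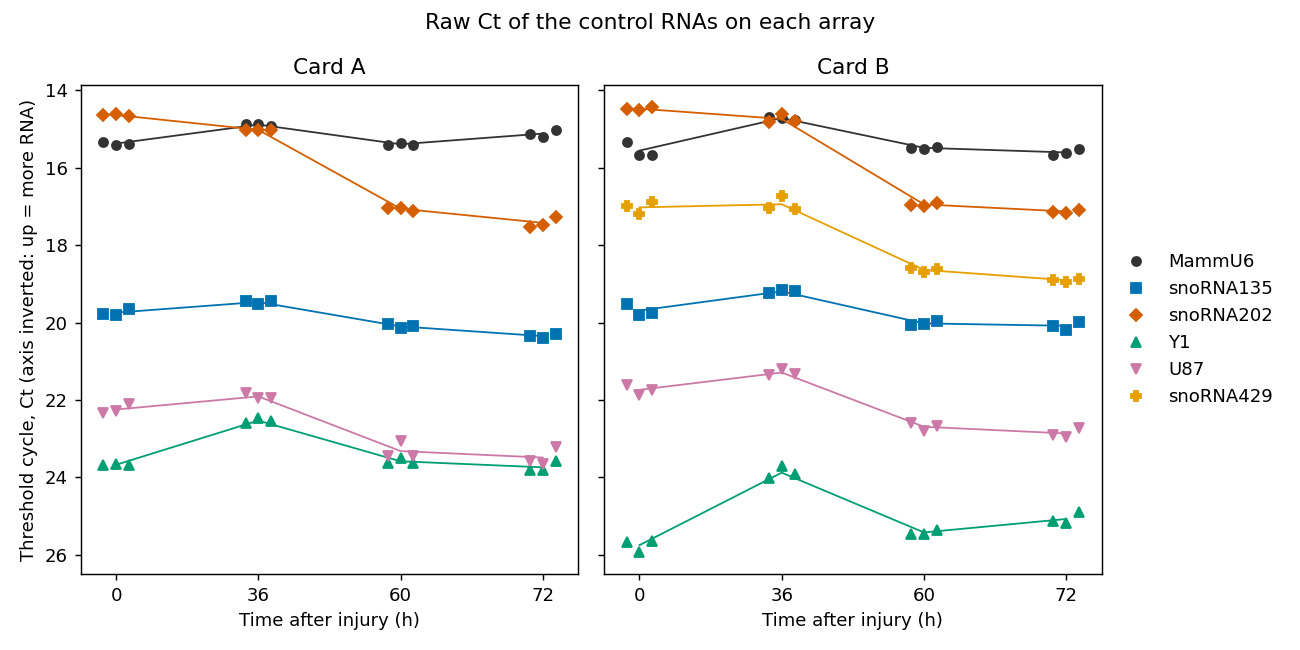
Raw Ct of each control RNA on each array (y axis, cycles, drawn so that more RNA is higher) at 0, 36, 60 and 72 h after injury (x axis), with card A and card B in separate panels, points for single arrays and lines through the means of 3 arrays. The snoRNA202 line falls between 36 h and 60 h, and Y1 peaks at 36 h on both cards.

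In counts, 1 of 5 controls on card A and 1 of 6 on card B were called at 36 h against 0 h, each higher. Of all tested assays, 64.3% on card A and 56.4% on card B were called then (58.8% and 52.5% higher). At 60 h, 2 of 5 and 2 of 6 controls were called, all lower, against a background of 69.9% and 50% of assays (42.8% and 23.9% lower). At 72 h it was 2 of 5 and 3 of 6, all lower, against 73.1% and 48.8% (52% and 31% lower). The median raw log2 change of the controls was 0.34, -0.36 and -0.61 at 36, 60 and 72 h on card A, where the tested microRNA assays had medians of 1.40, -0.51 and -1.11. On card B the controls had medians of 0.47, -0.64 and -0.76 and the microRNA assays 1.38, -0.12 and -0.32. In bulk RNA, fewer cells of a type, less of an RNA per cell and a different amount of RNA loaded cannot be told apart from raw Ct.

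**Figure D2:**
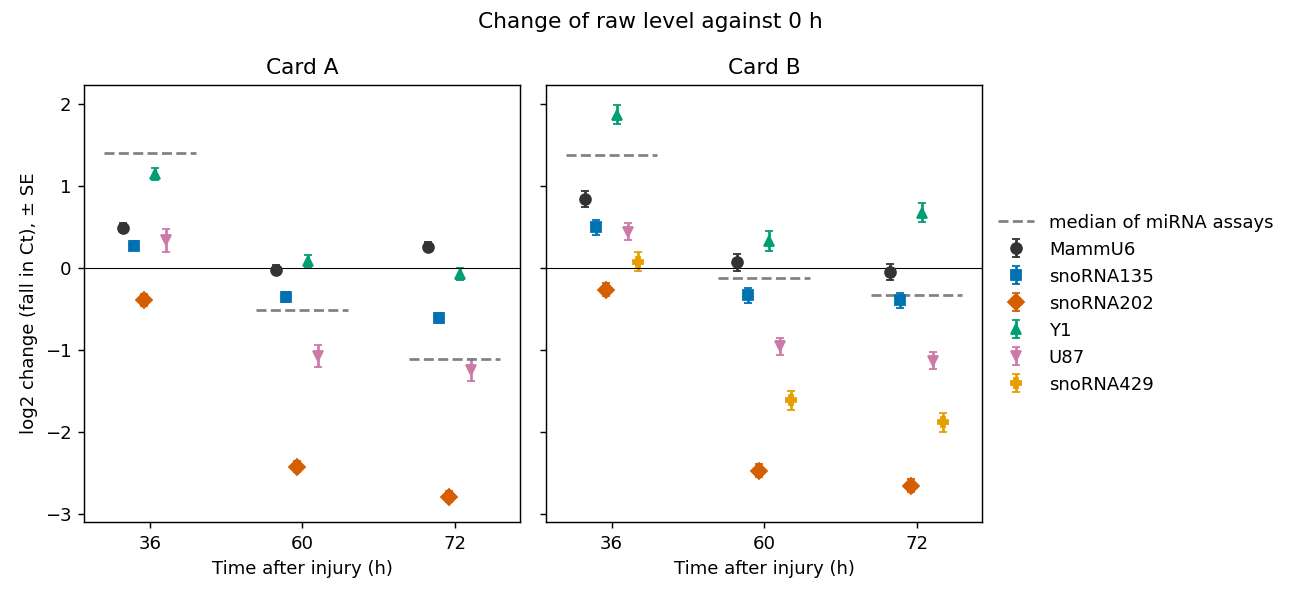
Raw log2 change of each control RNA against 0 h (y axis, log2 units, minus the Ct difference) at 36, 60 and 72 h (x axis) on card A and card B, with bars of 1 SE from the limma fit and dashed lines at the median of the tested microRNA assays. snoRNA202 reaches -2.79 on card A and -2.66 on card B at 72 h, and Y1 reaches 1.14 and 1.87 at 36 h.

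The later times were also compared with each other. At 60 h against 36 h, 3 of 5 controls on card A and 4 of 6 on card B were called, all lower, with 71.4% and 63.4% of all assays called (69.3% and 62.4% lower). These were snoRNA202 (log2 -2.04 on card A and -2.21 on card B), Y1 (-1.05 and -1.55), U87 (-1.41 and -1.40) and snoRNA429 on card B (-1.70). The same controls were called lower at 72 h against 36 h, 3 of 5 and 4 of 6, where 83.3% and 75.8% of all assays were called (79.6% and 73.7% lower). Their log2 changes were -2.40 and -2.39 for snoRNA202, -1.21 and -1.20 for Y1, -1.58 and -1.58 for U87, and -1.96 for snoRNA429. Between 72 h and 60 h limma called 0 of 5 and 0 of 6 controls, against 32.2% and 28% of all assays. With no minimum fold, 3 and 1 controls passed the adjusted p there, and the share of all assays that did so is not given here.

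The ratio of each control to MammU6 removes what is common to all assays of an array. MammU6 comes first among the normalisers because 5 of the 6 constants behind the deposited normalised values used here follow it, all but that of card B at 36 h. snoRNA202 and U87 fell against MammU6 at 60 h and 72 h on both cards, snoRNA429 fell on card B, and snoRNA135 was called at no time.

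The Ct of MammU6 minus that of snoRNA202 was 0.71, 0.81 and 0.70 on the card A arrays of 0 h, -0.17, -0.14 and -0.10 at 36 h, -1.62, -1.66 and -1.71 at 60 h, and -2.41, -2.27 and -2.24 at 72 h. On card B it was 0.84, 1.17 and 1.24, then -0.14, 0.11 and -0.03, then -1.48, -1.46 and -1.45, then -1.48, -1.53 and -1.57. The value is lower at each later time on card A, whereas the 60 h and 72 h arrays overlapped on card B. snoRNA202 was 8.27-fold lower at 72 h on card A (log2 -3.05 ± 0.06, limma adjusted p = 7.12e-12) and 6.10-fold on card B (-2.61 ± 0.12, limma adjusted p = 1.56e-08). At 36 h only the card B change passed the minimum fold (-1.11 ± 0.12, against -0.88 ± 0.06 on card A).

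For snoRNA429 the difference from MammU6 on card B was -1.65, -1.53 and -1.23 at 0 h, -2.36, -2.02 and -2.30 at 36 h, -3.12, -3.19 and -3.16 at 60 h, and -3.23, -3.33 and -3.35 at 72 h. No 2 neighbouring time points overlapped. It was 3.22-fold lower at 60 h (log2 -1.69 ± 0.14, limma adjusted p = 9.22e-07) and 3.57-fold lower at 72 h (-1.84 ± 0.14).

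U87 over MammU6 was -7.00, -6.89 and -6.73 on card A at 0 h, -6.96, -7.07 and -7.04 at 36 h, -8.05, -7.70 and -8.05 at 60 h, and -8.46, -8.45 and -8.21 at 72 h. Card B gave -6.28, -6.21 and -6.07, then -6.67, -6.49 and -6.58, then -7.13, -7.28 and -7.22, then -7.26, -7.33 and -7.20. At 60 h its fall was 2.08-fold on card A and 2.04-fold on card B (log2 -1.06 ± 0.12 and -1.03 ± 0.11), close to the minimum fold. Both 60 h calls rest on single arrays: on card A the log2 change was -0.99 without the 0 h replicate 3, and -0.996 and -0.999, not calls, without the 60 h replicate 1 and without the 60 h replicate 3, and on card B it was -0.97 without the 0 h replicate 3 and -0.99 without the 60 h replicate 2. At 72 h the log2 change was -1.50 ± 0.12 and -1.08 ± 0.11, both called.

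Y1 over MammU6 was -8.35, -8.26 and -8.31 on card A at 0 h, -7.74, -7.60 and -7.62 at 36 h, -8.21, -8.14 and -8.23 at 60 h, and -8.70, -8.61 and -8.57 at 72 h. On card B the arrays gave -10.35, -10.26 and -9.99, then -9.34, -9.00 and -9.16, then -9.98, -9.95 and -9.90, then -9.47, -9.57 and -9.39. The 72 h arrays were thus below those of 0 h on card A and above them on card B. Y1 was called at 36 h on card B alone (log2 1.03 ± 0.13, limma adjusted p = 3.88e-05), and that call was lost without the 0 h replicate 1 (0.96) or the 36 h replicate 2 (0.95). The card A value was 0.65 ± 0.06.

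snoRNA135 over MammU6 spanned -4.43 to -4.28 at 0 h, -4.65 to -4.52 at 36 h, -4.78 to -4.64 at 60 h and -5.28 to -5.20 at 72 h on card A. On card B it spanned -4.20 to -4.08, -4.57 to -4.43, -4.58 to -4.51 and -4.56 to -4.42. Its log2 change at 36, 60 and 72 h was -0.22, -0.34 and -0.87 on card A and -0.35, -0.40 and -0.35 on card B, below the minimum fold at each.

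Of the controls other than MammU6, 0, 2 and 2 of 4 on card A were called over it at 36, 60 and 72 h against 0 h, where 56.9%, 70.3% and 74.1% of all assays were called. On card B 2, 3 and 3 of 5 were called, against 52%, 51.7% and 49.4%. At 60 h against 36 h, snoRNA202 alone was called on each card (log2 -1.53 and -1.44), with 60.6% and 41% of all assays. At 72 h against 36 h, snoRNA202 (-2.17 and -1.50), U87 on card A (-1.35) and snoRNA429 on card B (-1.07) were called, with 81.1% and 55.3% of assays. None of the controls was called over MammU6 at 72 h against 60 h by limma, where 41.2% and 23.9% of assays were.

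**Figure D3:**
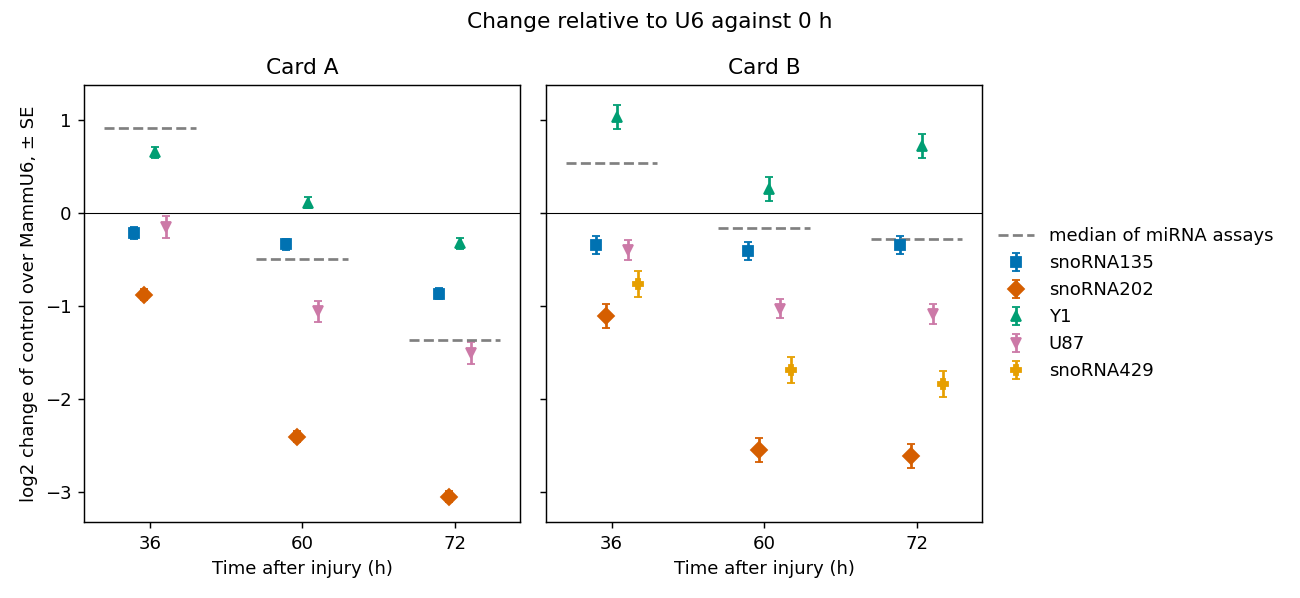
Log2 change of each control RNA relative to MammU6 against 0 h (y axis) at 36, 60 and 72 h (x axis) on card A and card B, with bars of 1 SE from the limma fit and dashed lines at the median of the tested microRNA assays. Y1 at 72 h lies at -0.32 on card A and at 0.72 on card B.

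The remaining pairs leave MammU6 out. With snoRNA135 as the denominator, snoRNA202 fell at 60 h and 72 h on both cards (log2 -2.07 and -2.18 on card A, -2.14 and -2.26 on card B). On card B snoRNA429 also fell (-1.28 and -1.49), and Y1 rose at 36 h (1.38) and 72 h (1.07). Card A gave 0.87, 0.45 and 0.54 for Y1 at 36, 60 and 72 h, none called. U87 over snoRNA135 was called at no time, with -0.72 at 60 h and -0.64 at 72 h on card A and -0.62 and -0.74 on card B. All assays relative to snoRNA135 were called in 67.4% and 65.3% at 60 h and 72 h on card A, and in 50%, 51.7% and 51.8% at 36, 60 and 72 h on card B.

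The ratio of Y1 to snoRNA202 rose at all 3 later times on both cards. Y1 over snoRNA202 was -9.06, -9.06 and -9.01 at 0 h on card A, -7.56, -7.46 and -7.52 at 36 h, -6.59, -6.48 and -6.52 at 60 h, and -6.30, -6.34 and -6.33 at 72 h. On card B it was -11.19, -11.44 and -11.23, then -9.20, -9.11 and -9.13, then -8.50, -8.49 and -8.45, then -8.00, -8.03 and -7.82. The time points did not overlap on either card, and each later one was higher. The log2 change at 72 h was 2.72 ± 0.06 on card A (6.60-fold, limma adjusted p = 1.33e-11) and 3.33 ± 0.09 on card B (10.1-fold, limma adjusted p = 1.62e-10). It was 1.53 and 2.14 at 36 h and 2.51 and 2.80 at 60 h.

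U87 over snoRNA202 rose at 60 h and 72 h on both cards (1.35 and 1.55 on card A, 1.52 and 1.53 on card B). snoRNA429 over snoRNA202 stayed below the minimum fold at 0.35, 0.86 and 0.77. With snoRNA202 as the denominator the calls covered 69.1%, 75% and 74.7% of all assays at 36, 60 and 72 h on card A and 64%, 89.7% and 85.5% on card B. U87 over Y1 was lower at 60 h and 72 h on card A (-1.16 and -1.18, with -0.80 at 36 h) and at all 3 times on card B (-1.43, -1.28 and -1.80). snoRNA429 over Y1 was lower at all 3 times on card B (-1.79, -1.95 and -2.56). Relative to Y1, 72.1% and 71.8% of all assays were called at 60 h and 72 h on card A, and 55%, 54% and 60.2% at 36, 60 and 72 h on card B. The U87 and snoRNA429 pair had no call (-0.37, -0.66 and -0.75).

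Over every pair, 1, 6 and 6 of 10 on card A and 6, 9 and 10 of 15 on card B were called at 36, 60 and 72 h against 0 h. The share of all assays called over MammU6, snoRNA135, snoRNA202 or Y1 was 67.4% to 75% at 60 h and 65.3% to 74.7% at 72 h on card A. At 36 h there it was 56.9% over MammU6 and 69.1% over snoRNA202. On card B the shares were 50% to 64%, 51.7% to 89.7% and 49.4% to 85.5% at 36, 60 and 72 h. These pairs share their members and are not independent. Among the later times, snoRNA202 over snoRNA135 was called at 60 h against 36 h (log2 -1.41 and -1.38, with 57.4% and 39% of all assays) and at 72 h against 36 h (-1.52 and -1.50, with 67.6% and 55.3%). snoRNA429 over snoRNA135 was called at 72 h against 36 h on card B (-1.07). So was Y1 over snoRNA202 on both cards (1.19 and 1.19, with 56.2% and 44.7% of assays). That makes 2 pairs per card at 60 h against 36 h, and 4 on card A and 5 on card B at 72 h against 36 h. The card B count was 3 without the 36 h replicate 2, which left snoRNA429 at -0.97 over MammU6 and at -0.98 over snoRNA135. On card A, calls were gained for Y1 over snoRNA202 at 60 h against 36 h without the 36 h replicate 2 or the 60 h replicate 1 (1.01 and 1.02). Likewise gained were U87 over MammU6 at 60 h against 36 h without the 60 h replicate 2 (-1.02), and Y1 over MammU6 at 72 h against 36 h without the 36 h replicate 1 (-1.02) or the 72 h replicate 3 (-1.01). limma called 0 pairs at 72 h against 60 h, and 5 per card passed the adjusted p without the minimum fold. For that comparison the shares of all assays over controls other than MammU6, and for the adjusted p alone, are not given here.

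The controls were then set against the mean Ct of the microRNA assays detected on all 12 arrays of a card, 152 on card A and 70 on card B. That mean was 25.41, 23.63, 25.58 and 26.18 cycles at 0, 36, 60 and 72 h on card A and 27.41, 25.80, 27.28 and 27.83 on card B. At 36 h 4 of 5 controls on card A and 4 of 6 on card B were called against it, all lower. Of all assays, 57.7% and 50.5% were called in either direction, and the share called lower is not given here. The tested microRNA assays had median log2 changes of -0.38 and -0.24 against that mean. MammU6 was 2.45-fold lower on card A (log2 -1.29 ± 0.04, limma adjusted p = 6.73e-10), with -0.78 ± 0.11 on card B. snoRNA135 fell 2.84-fold and 2.18-fold, U87 2.72-fold and 2.25-fold, and snoRNA429 2.90-fold. Y1 was at -0.64 on card A and 0.26 on card B.

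snoRNA202 was lower against the microRNA mean at every later time, with log2 changes of -2.17, -2.25 and -2.02 on card A and -1.88, -2.61 and -2.24 on card B. snoRNA429 was also lower at all 3 (-1.54, -1.75 and -1.47). At 60 h, 1 of 5 and 3 of 6 controls were called against 68.8% and 51.1% of assays, the third on card B being U87 (-1.09). At 72 h, 2 of 5 and 3 of 6 were called against 66.1% and 51.2%. At 72 h MammU6 rose 2.05-fold on card A (log2 1.03 ± 0.04), a call lost without the 0 h replicate 1 (0.99) or 2 (0.97), and was at 0.37 ± 0.11 on card B. Y1 rose 2.13-fold on card B (1.09 ± 0.08) and was at 0.71 ± 0.06 on card A. The Y1 call was lost without the 0 h replicate 2 (0.99). U87 on card A was called at 60 h without the 0 h replicate 1 (-1.01) or the 60 h replicate 2 (-1.03), against -0.90 with all arrays.

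With the median in place of the mean of those microRNA assays, the 72 h value of MammU6 on card A was 0.91. The card B values of U87 at 36 h and 60 h and of snoRNA135 at 36 h became -0.72, -0.90 and -0.67. None of the 4 was then called.

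The choice of control sets where the whole microRNA panel lies. At 72 h against 0 h on card A, the median log2 change of 166 tested microRNA assays was -1.37 relative to MammU6, -0.50 to snoRNA135, -1.04 to Y1, 0.13 to U87 and 1.68 to snoRNA202. On card B the median of 78 assays was -0.28 relative to MammU6, 0.07 to snoRNA135, -0.999 to Y1, 0.81 to U87, 1.56 to snoRNA429 and 2.33 to snoRNA202. At 36 h the median was above 0 with every control except Y1 on card B (0.26 with Y1 on card A, -0.50 on card B).

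The same RNAs on both cards allow the change to be set side by side, as card A minus card B with a 95% interval and no p. Raw changes of snoRNA202 and U87 differed by intervals that include 0 at all 3 times. For snoRNA202 the 72 h difference was -0.13 (interval -0.35 to 0.09). Y1 differed: its raw change was smaller on card A by -0.73 at 36 h (-1.02 to -0.44) and by -0.74 at 72 h (-1.04 to -0.45). MammU6 also differed, by -0.35 at 36 h (-0.59 to -0.11) and by 0.31 at 72 h (0.06 to 0.55). Relative to MammU6, the 72 h differences were -1.05 for Y1 (-1.35 to -0.75), -0.52 for snoRNA135 (-0.76 to -0.28), -0.44 for snoRNA202 (-0.73 to -0.15) and -0.42 for U87 (-0.75 to -0.09). All 4 share the MammU6 spots of the same arrays.

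The spots of card B show how closely an assay repeats within an array. The SD among the 4 MammU6 spots of an array ranged over 0.0220 to 0.105 cycles (card A) and 0.0285 to 0.108 cycles (card B). Median SDs on card B were 0.0549 for snoRNA202, 0.0668 for snoRNA135, 0.0795 for U87, 0.124 for snoRNA429 and 0.221 for Y1. The first 2 Y1 spots crossed 0.325 cycles later than the last 2 on average (SD 0.111 over 12 arrays, range 0.109 to 0.469), later on 12 of 12 arrays. The change of Y1 was alike in its single spots, 1.73 to 1.96 at 36 h, 0.24 to 0.40 at 60 h and 0.56 to 0.81 at 72 h.

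Over all 12 arrays of a card, the SD of the raw Ct was 0.223 cycles for MammU6 on card A, and 0 of 152 microRNA assays detected on every array had a smaller one. snoRNA135 had 0.355 (2 of 152 smaller), Y1 0.521 (3), U87 0.723 (14) and snoRNA202 1.28 (66). On card B the order began with snoRNA135 at 0.377 (7 of 70 smaller) and MammU6 at 0.391 (8), followed by U87 at 0.691 (17), Y1 at 0.749 (18), snoRNA429 at 0.947 (26) and snoRNA202 at 1.28 (46). The median SD of the microRNA assays was 1.40 cycles for card A and 1.09 for card B. These SDs hold both the array spread and the time course and are given as a description. On card A MammU6 is a mean of 4 spots per array, whereas the other controls and the microRNA assays are single spots. The SDs ranked there thus differ in precision. The order was different for the SD of the Ct difference, averaged over all other assays detected on every array. On card A MammU6 then had 1.38, with 78 of 152 microRNA assays lower, against 1.33 for snoRNA202 (66 lower), 1.26 for snoRNA135 (54), 1.19 for Y1 (30) and 1.18 for U87 (29). On card B it was 0.912 for MammU6 (5 of 70 lower), 0.922 for snoRNA135 (8), 0.928 for U87 (8), 0.945 for Y1 (10), 1.06 for snoRNA429 (24) and 1.29 for snoRNA202 (51).

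**Figure D4:**
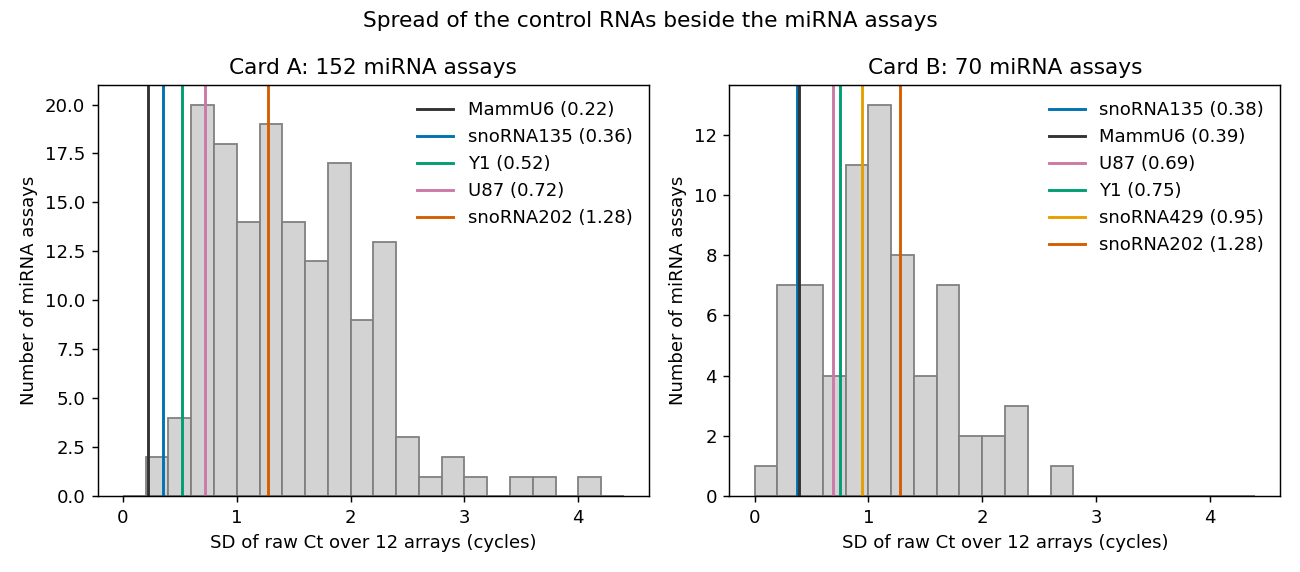
SD of raw Ct over the 12 arrays of a card (x axis, cycles) for the microRNA assays detected on all 12 arrays (histogram, y axis number of assays), with a vertical line for each control RNA, on card A and card B. MammU6 at 0.223, a mean of 4 spots per array, lies below every microRNA assay on card A, where these are single spots. snoRNA202 at 1.28 lies within the bulk on both cards.

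The SD of the Ct difference between 2 controls was lowest for snoRNA135 and MammU6 on card B (0.175) and highest for Y1 and snoRNA202 on card B (1.33). On card A the lowest were Y1 with snoRNA135 (0.335) and snoRNA135 with MammU6 (0.338), and the highest was snoRNA202 with MammU6 (1.26). Averaged over its pairs, snoRNA135 had the smallest SD on card A (0.511) and U87 on card B (0.505), with snoRNA135 next (0.543), and snoRNA202 had the largest on both (1.00 and 0.900). The closest control to snoRNA202 was U87 on card A (0.643), with 23 of 152 microRNA assays closer, and snoRNA429 on card B (0.367), with 0 of 70 closer.

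**Figure D5:**
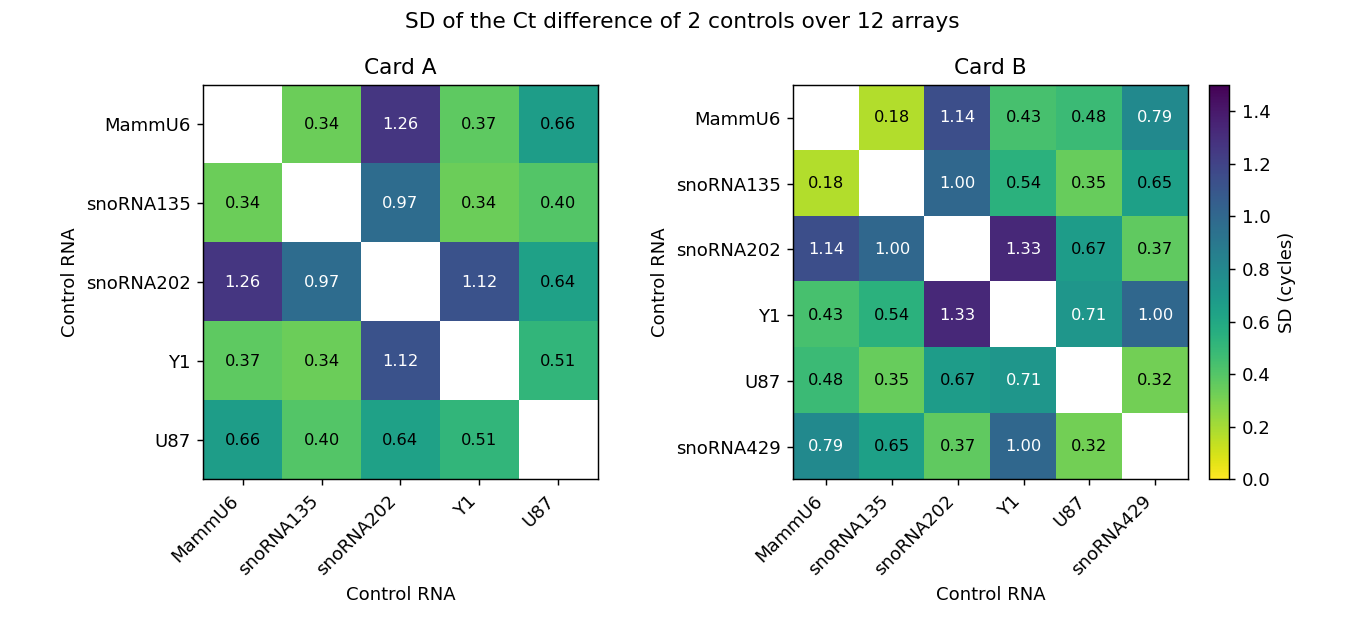
SD over 12 arrays of the Ct difference between each pair of control RNAs (cell value and colour, cycles), with the controls on both axes, on card A and card B. The smallest value is that of snoRNA135 with MammU6 on card B (0.175), and the largest on each card is a pair with snoRNA202 (1.26 and 1.33).

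The microRNA assays that ran closest to each control were found by the SD of their Ct difference over the 12 arrays, 2 per control and card. On card A these were miR-335-5p (0.167) and miR-128a (0.277) for MammU6, miR-532-5p (0.153) and miR-128a (0.256) for snoRNA135, and let-7b (0.163) and let-7c (0.180) for snoRNA202. The nearest to Y1 were miR-151-3p (0.194) and miR-744 (0.232), and to U87 miR-342-3p (0.140) and miR-671-3p (0.170). On card B they were miR-29b* (0.117) and miR-706 (0.206) for MammU6, miR-699 (0.148) and miR-29b* (0.215) for snoRNA135, and miR-30a* (0.380) and miR-30e* (0.454) for snoRNA202. miR-503* (0.320) and miR-29b* (0.401) ran with Y1, miR-877* (0.213) and miR-690 (0.235) with U87, and miR-877* (0.158) and miR-467a* (0.322) with snoRNA429.

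Of the 18 different assays so found, 5 match a mature microRNA of the RefSeq table by name, and their sequences follow to identify the nearest companions of MammU6 and U87, with the seed (bases 2 to 8) in capitals. miR-335-5p lies at chr6:30741314-30741336 on the plus strand, miR-706 at chr6:120034290-120034311 on the minus strand, miR-342-3p at chr12:108658680-108658702 on the plus strand, miR-671-3p at chr5:24592171-24592191 on the plus strand and miR-690 at chr16:28599940-28599961 on the minus strand (GRCm38.p6). No 2 of the 5 share a seed.
mmu-miR-335-5p: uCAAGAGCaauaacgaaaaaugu
mmu-miR-706: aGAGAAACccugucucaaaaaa
mmu-miR-342-3p: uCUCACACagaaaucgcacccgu
mmu-miR-671-3p: uCCGGUUCucagggcuccacc
mmu-miR-690: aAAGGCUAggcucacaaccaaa

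The deposited normalised values used here are those of 0, 36 and 60 h, since the remaining columns are named for a later day than the 72 h samples and were not used. In the authors' deposited table each dCt is the Ct minus 1 constant per card and time, and 5 of the 6 constants lie within 0.001 of the MammU6 group mean. On card B at 36 h the authors' deposited table uses 16.97, where MammU6 averaged 14.71 ± 0.04 (SD, n = 3), a shift of 2.26 cycles or 4.78-fold. The nearest control mean there was snoRNA429, at 16.94 ± 0.19 (SD, n = 3). For 36 h on card B the authors' deposited table lists an average fold change over 0 h of 4.81 for MammU6 itself, 9.97 for Y1, 3.78 for snoRNA135, 3.67 for U87, 2.89 for snoRNA429 and 2.23 for snoRNA202. Taken over MammU6 on the same arrays, these folds were 1 for MammU6, 2.05 for Y1, 0.787 for snoRNA135, 0.760 for U87, 0.590 for snoRNA429 and 0.464 for snoRNA202. On card A at 36 h the authors' deposited table gives 0.544 for snoRNA202, against 0.544 here, and at 60 h it gives 0.189 on card A and 0.172 on card B, against 0.189 and 0.171.

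MicroRNAs that mark cell types moved over the same times. The muscle lineage list (miR-1, miR-133a, miR-133b, miR-206) was detected in 4 of 4 assays at every time. Its 3 card A assays summed to a Ct of 25.22 to 25.37 at 0 h, 22.33 at 36 h, 21.85 to 21.97 at 60 h and 20.83 to 20.96 at 72 h. Each summed Ct given here weighs most the assays that cross earliest, and it depends on the primer set of each assay. miR-489, known from quiescent muscle stem cells, averaged 24.43, 25.34, 29.30 and 30.84 cycles at 0, 36, 60 and 72 h. The Ct of the summed leukocyte list on card A (5 assays, of which 4, 5, 4 and 4 were detected on all 3 arrays) ranged over 20.79 to 20.83 at 0 h, 18.78 to 18.79 at 36 h, 22.05 to 22.17 at 60 h and 22.68 to 22.81 at 72 h. Its members all crossed later at 60 h than at 36 h, by different amounts. Against 0 h, miR-150 crossed later at 60 h and 72 h, whereas miR-155, miR-223 and miR-142-3p crossed earlier. The 0 h sum is mostly miR-150. At 0, 36, 60 and 72 h miR-150 averaged 20.91, 20.01, 24.6 and 24.86 cycles and miR-155 24.96, 22.45, 23.06 and 24.48. In the same order miR-223 averaged 28.00, 19.86, 23.96 and 23.93, and miR-142-3p 33.59, 24.56, 27.70 and 27.73. miR-142-5p was detected on 0, 3, 2 and 1 arrays. The 2 endothelial assays summed to 19.78 to 19.89, 17.13 to 17.21, 21.60 to 21.67 and 21.44 to 21.60. The summed epithelial list (1, 3, 1 and 1 of 3 detected) was at 24.46 to 24.59, 23.51 to 23.63, 26.19 to 26.31 and 27.17 to 27.28. The erythroid miR-451 was detected on 0 of 3 arrays at 0 h, on 3 at 36 h (27.87 to 28.93), on 3 at 60 h (31.47 to 34.16) and on 1 at 72 h. The part of other cells in the change of Y1 at 36 h and in the later falls of snoRNA202, U87 and snoRNA429 was not tested.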

How the data were processed

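Per the labels, Ct values came from TaqMan Array Rodent MicroRNA A and B Cards v2.0 run on an ABI 7900HT instrument. The sources used here name neither the software nor the threshold behind Ct. The deposited Ct values are other than counts or intensities: they are cycles, without normalisation. The deposited average fold (a linear ratio to 0 h) was made by the authors, per the file headers, from dCt, and its Ct columns matched the single arrays within 5e-05 cycles. A further 48 per-sample columns of those tables were not used: 24 are named for a day that matches no sample's label, and 24 hold ddCt and fold per replicate at 36 h and 60 h. Card type was read from each array's assay names.

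Spots of an assay were averaged per array. An assay was detected with all its spots below Ct 35 and tested where each group had 2 or more detected replicates. limma 3.58.1 (R 4.3.3) was fitted per card to 12 arrays with time as the only factor, on minus Ct, on Ct of a reference minus Ct of the assay, and on the microRNA mean minus Ct. Benjamini-Hochberg adjustment ran over all tested assays of a card and contrast, and a call needed an adjusted p below 0.05 and 2-fold. The fits were tested on simulated data. Python 3.11.15 did the rest. Precision is limited by 3 technical arrays per group. Same-numbered arrays were checked for shared deviations from their group means: all 3 correlations were above 0.1 only for 60 h with 0 h on card B (0.34 to 0.49). The numbers may thus pair the arrays in that comparison alone, a hint from the data and not from the labels. For 60 h with 36 h on card B all 3 correlations were negative (-0.42 to -0.32). Shared pairing would not give that sign, so the check cannot decide on pairing. Every reported fit left the arrays unpaired, 60 h against 0 h on card B included, and a replicate block was run only as an alternative.

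Named were the controls, the plant control, the 2 nearest microRNA assays per control and the marker assays. Members and lists were chosen with earlier results of these data known. Alternatives were the detection limit, a replicate block, leaving out each array, eBayes with trend, adjustment over both cards, no minimum fold, the median of MammU6 spots and the microRNA median.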

Additional observations from a re-analysis of the deposited data

Results flagged for a closer look

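Both flagged values are differences between the cards in the change of Y1, whose 95% interval leaves out 0 (changes on separate arrays, standard errors of both fits combined, no p). Such an interval is not particular to Y1. Against the microRNA mean, MammU6 differed by -0.51 at 36 h (-0.77 to -0.26) and by 0.67 at 72 h (0.41 to 0.92). The intervals of snoRNA202 left out 0 at 36, 60 and 72 h there, and those of U87 at none of these times. Relative to MammU6, the 72 h change against 0 h on card A minus that on card B was -1.05 (interval -1.35 to -0.75), with -0.32 on card A and 0.72 on card B. Against the microRNA mean, the 36 h change on card A minus that on card B was -0.89 (-1.10 to -0.69), with -0.64 on card A and 0.26 on card B. That mean comes from different microRNA assays on each card, 152 on card A and 70 on card B, so this difference also holds the difference between the 2 means.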

How the results depend on the processing

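No value called in the main run or in an alternative reversed its direction between them. Values called in neither run were not checked for direction, and those near 0 can change sign. All 249 single values kept their side of the threshold with the detection limit at Ct 40, with eBayes trend and robust, with adjustment over both cards and with the median of MammU6 spots. A replicate block cannot move an estimate in this balanced design (shift 0) and could alter only its SE and p. The SE was 0.759 to 1.15 times that without the block, the adjusted p of 2 of 249 values went above 0.05 and that of 1 below it, and no call changed, on card B at 60 h included. Same-numbered arrays correlated at -0.42 to 0.49 in their deviations over all pairs of times, with 0.34 to 0.49 for 60 h with 0 h and -0.42 to -0.32 for 60 h with 36 h on card B. Leaving out 1 array kept 2968 of 2988 values on their side of the threshold, with 12 calls lost and 8 gained. The calls against the microRNA mean then ranged over 1 to 2 on card A at 60 h and 1 to 2 at 72 h, and the pairs called on card B at 72 h against 36 h over 3 to 5. With the microRNA median in place of the mean, the count on card A at 72 h was 1 in place of 2, and on card B at 36 h it was 2 in place of 4. Without the minimum fold 134 of 249 values kept their side and 115 were newly called, since this removes a condition. The share of all assays that pass the adjusted p alone is not given here. The counts that follow therefore show the effect of the rule and are not a result about the controls. Raw counts against 0 h were then 5 at 36 h and 4 at 72 h on card A and 5 at 36, 60 and 72 h on card B. Between later times they were 5 at 60 h against 36 h, 3 at 72 h against 60 h and 5 at 72 h against 36 h on card A, and 1 at 72 h against 60 h on card B. Counts against the microRNA mean were 5 at 60 h and 5 at 72 h on each card. Pair counts against 0 h were 8 at 36 h and 10 at 72 h on card A and 14 at 36 h and 14 at 60 h on card B. Between later times the pair counts at 60 h against 36 h, 72 h against 60 h and 72 h against 36 h were 9, 5 and 10 on card A and 12, 5 and 13 on card B.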
